A study of Mus musculus with 10 samples.

Results

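Prohormone processing and granule membrane genes encode the enzymes that cut, trim and amidate hormone precursors, the small proteins that hold these enzymes in check, and a pair of membrane proteins of the secretory granule. A list of 9 such genes was set (Pcsk1, Pcsk2, Furin, Cpe, Pam, Pcsk1n, Scg5, Ptprn and Ptprn2), and each was read from the brightest probe set that carries its symbol alone. Of the 9 genes, 8 were measured in this way, of 19938 genes measured in all, and each of the 8 had a single probe set. Pcsk2, which encodes the second granule convertase, is not analysed here, because no probe set is named for it in the annotation used. Islets, which hold the endocrine cells of the pancreas, came from male mice of 6 weeks of age of the strains NZO/Hl, called NZO here and described in the labels as prone to diabetes, and C3HeB/FeJ, called C3H. Both strains were fed a high-fat diet, with 45% of its energy from fat, from weaning at 21 days on, and carried no other treatment. The islets recovered overnight in medium with 10 mM glucose before RNA was taken. There were 5 arrays per strain. Most titles hold a pair of animal numbers, which may mark pooled animals. The title of NZO replicate 4 holds a single number and that of NZO replicate 5 a range. The labels do not state that each array stands for its own animals, so the p-values speak to the spread of these samples, part of which may be technical. The comparison served a search for genes of insulin secretion that differ between the strains.

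Peptide hormones are made as larger precursors. In the maturing granule the prohormone convertases cut a precursor after pairs of basic residues, carboxypeptidase E removes the basic residues left at the new ends, and the amidating enzyme turns a terminal glycine into an amide, as in islet amyloid polypeptide. In beta cells this series of steps turns proinsulin into insulin and C-peptide, and in alpha cells it releases glucagon from proglucagon. Furin does related cutting earlier, in the trans-Golgi network of nearly every cell type, on precursors of growth factors, receptors and adhesion proteins.

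The strain differences of these genes were small on the log2 scale. Values are log2 expression values from RMA, a method that corrects background, sets all arrays to 1 distribution and combines the probes of each probe set, so a difference of 1 is a doubling. With limma, a linear model with a shared estimate of spread over all genes, 1 of the 8 genes passed at a Benjamini-Hochberg adjusted p below 0.05 over all genes, and 0 were higher. That gene was Pcsk1, which was lower in NZO. Over all 19938 genes, 10.1% passed, 5.47% higher and 4.61% lower in NZO. At this threshold the count of 1 in 8 is near the background, but it depends on the fit. The adjusted p in limma was 0.0523 for Cpe, 0.0615 for Furin and 0.0674 for Scg5. In fits of genes above the median or 25th percentile of brightness, 3 were called higher and 1 lower, against 17.2% and 13.9% of genes. The same calls were made when limma let the spread depend on brightness and used a robust estimate, against 10.5% of all genes. The arrays of the strains did not overlap for 3 of the 8, Pcsk1, Furin and Cpe. Over all genes this share was 9.14%, and 12.8% of genes above the median of brightness, where all 8 lie. By the estimates alone, 4 of the 8 were higher and 4 lower in NZO, with a median difference of 0.02 against -0.02 over all genes. Unadjusted, 5 of the 8 had a limma p below 0.05. Ptprn2, with the largest limma p of these 5 (0.04), ranked 4001 by p among the 19938 genes. At least 4001 genes thus lay below that level, and their exact share was not counted. Each of the 8 differed by less than 0.3 on the log2 scale, and the 95% intervals of all 8 lay between 73.8% and 140% of the C3H level. The median absolute difference over all genes was 0.095. By size, 13.3% of genes differed more than Furin, 15.2% than Pcsk1, 19.3% than Scg5, 20.8% than Cpe and 21.8% than Ptprn2. For Pcsk1n, Ptprn and Pam that share was 48.2%, 57.2% and 63.5%. The brightest of them, Cpe, reached 13.43, where the highest value of any array was 13.96 to 14.05.

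**Figure D1:**
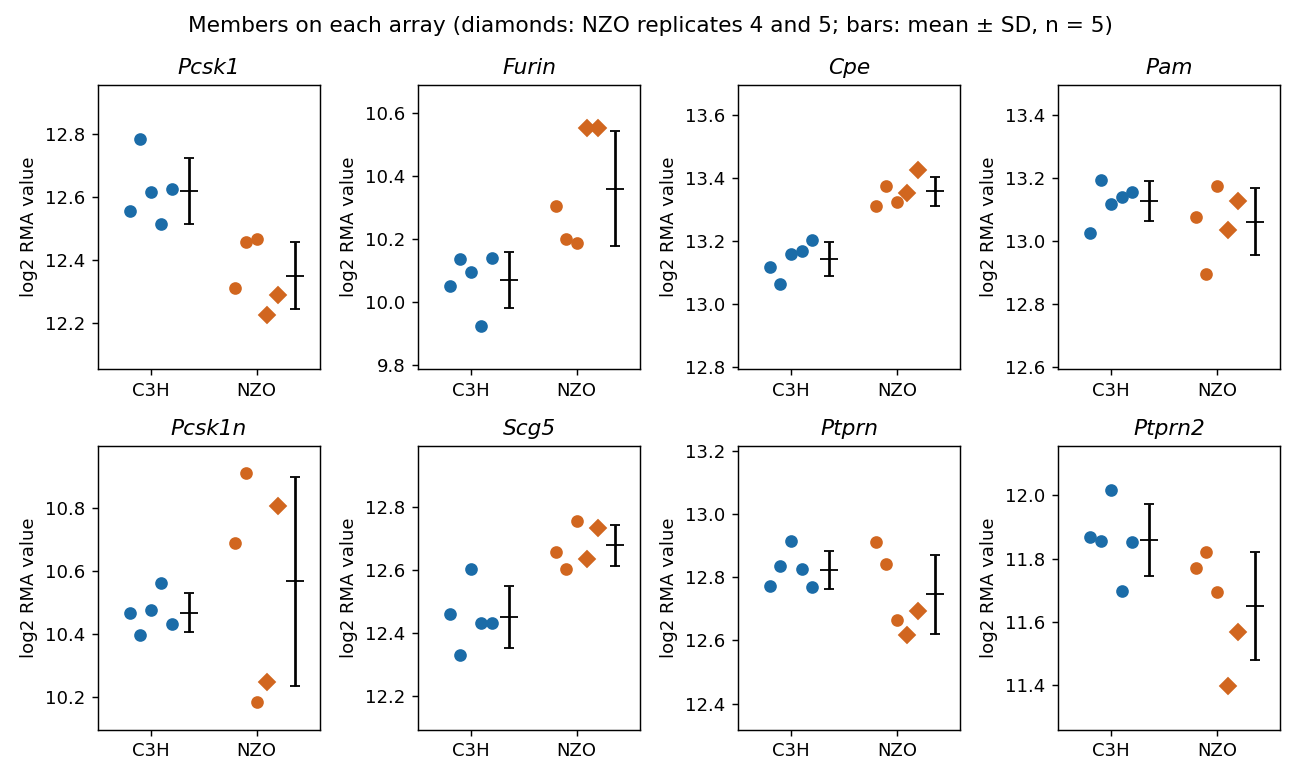
Log2 RMA value (vertical axis) of each measured gene on each of the 10 arrays, C3H in blue and NZO in orange, with the mean ± SD of each strain beside the points and the same span of values in every panel. The strains do not overlap for Pcsk1, Furin and Cpe, touch for Scg5 and overlap for the others, and Pcsk1n has its widest spread in NZO.

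The 8 genes lie on 7 chromosomes. In the RefSeq gene table of GRCm38.p6, Pcsk1 spans chr13:75089420-75134861, Furin chr7:80389194-80405441, Cpe chr8:64592542-64693109 and Scg5 chr2:113776313-113829091. Pam (chr1:97821091-98095853) and Ptprn (chr1:75247035-75264497) share a chromosome, Pcsk1n lies at chrX:7919822-7924410 and Ptprn2 at chr12:116485695-117278167. All 8 are annotated as protein-coding. A probe set of this kind of array summarises probes over a transcript, so the values do not tell isoforms apart.

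Promoter sequence is shown for the single gene that passed and for a convertase and a convertase chaperone with estimates in the other direction. The cyclic AMP response element, through which cyclic AMP acts on many genes of endocrine cells, has the letters TGACGTCA, and TGACG is its half-site. Both were searched on both strands in the 250 bases before each annotated start, and half-sites within the full element were counted too. The RefSeq promoter table of GRCm38.p6 held 8 of the 9 listed genes, without Cpe, in 11 windows, since Furin, Pam and Ptprn have more than 1 annotated start. The windows of Pcsk1 (chr13:75089607-75089856) and Ptprn lie inside the gene spans given above, as does the second window of Furin. These starts are thus not the outermost bases of those genes. Pcsk1 was the only one of the 8 with the full element, at 78 bases before its start, where 1.55% of all 32851 windows in the table held one. It also held a further half-site at 50 bases before the start. Half-sites were also present before the Scg5 start (175 bases), the first Furin start (126 bases), the first Ptprn start (117 and 80 bases) and the Pcsk2 start (34 bases), and 17.8% of all windows held at least 1. No match was found in these windows before Pam, Pcsk1n, Ptprn2 and the second starts of Furin and Ptprn. The 200 bases before the start are given 5′ to 3′ on the strand of the gene, with the element and half-sites in capitals, for Pcsk1 (chr13:75089657-75089856, plus strand), Scg5 (chr2:113829092-113829291, minus strand) and the first start of Furin (chr7:80405437-80405636, minus strand).
Pcsk1: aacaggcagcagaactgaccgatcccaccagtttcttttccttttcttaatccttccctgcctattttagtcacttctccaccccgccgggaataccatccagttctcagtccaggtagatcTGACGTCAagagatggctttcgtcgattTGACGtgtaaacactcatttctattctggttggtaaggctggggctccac
Scg5: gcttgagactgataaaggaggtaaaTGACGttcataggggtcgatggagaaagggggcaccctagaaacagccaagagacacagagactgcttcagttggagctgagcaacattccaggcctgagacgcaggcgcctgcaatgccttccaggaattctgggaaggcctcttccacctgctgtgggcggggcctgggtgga
Furin: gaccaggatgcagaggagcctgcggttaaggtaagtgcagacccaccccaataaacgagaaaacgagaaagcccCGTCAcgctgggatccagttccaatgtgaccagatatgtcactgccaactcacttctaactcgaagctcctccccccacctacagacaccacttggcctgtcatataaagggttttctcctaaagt
These matches are descriptions of the letters in the reference strain, and binding was not measured.

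Pcsk1 encodes the granule convertase that makes the first cut in proinsulin. Its log2 values were 12.55, 12.78, 12.62, 12.51 and 12.62 on C3H replicates 1 to 5, and 12.31, 12.46, 12.47, 12.22 and 12.29 on NZO replicates 1 to 5. Every NZO array lay below every C3H array, with a gap of less than 0.05 between the nearest, and NZO replicates 4 and 5 were the lowest of all. The C3H mean of 12.62 ± 0.10 and the NZO mean of 12.35 ± 0.11 (SD, n = 5 each) gave a difference of -0.27 (SE 0.08, limma adjusted p = 0.0447). On the linear scale the NZO level was 83.0% of that in C3H (95% interval 73.8% to 93.4%). The call is fragile: it ended in limma in 7 of the 10 fits that each left out a single array, namely C3H replicate 1, 2, 3 or 5 or NZO replicate 1, 4 or 5 (differences -0.28 to -0.23), while the sign stayed the same.

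Furin, the convertase of the trans-Golgi network, differed the other way without passing. It was 10.05, 10.14, 10.10, 9.92 and 10.14 on C3H replicates 1 to 5, and 10.30, 10.20, 10.19, 10.55 and 10.55 on NZO replicates 1 to 5. The strains did not overlap, and the gap was small, with NZO replicates 4 and 5 standing above the other NZO arrays. The means of 10.07 ± 0.09 and 10.36 ± 0.18 differed by 0.29 (SE 0.09, limma adjusted p = 0.0615), which puts the NZO level at 122% of C3H (95% interval 107% to 140%).

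Of 5 other measured convertases fixed as a list, 0 passed in limma and 0 had strains that did not overlap, with a median difference of -0.02. Over all genes these shares were 10.1% and 9.14%, so 0 of 5 is near the background. The 5 had 1 member with an unadjusted interval that leaves out 0, Pcsk6, a convertase of secreted growth factor precursors (0.28, SE 0.10, 95% interval 0.06 to 0.50, limma adjusted p = 0.106). Mbtps1, the Golgi protease that releases membrane-bound transcription factors, differed by -0.14 (SE 0.08), Pcsk7 by -0.05 (SE 0.08), Pcsk5 by 0.03 (SE 0.08) and Pcsk4 by -0.02 (SE 0.10).

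Cpe encodes carboxypeptidase E, which trims the basic residues that a convertase leaves behind. Its values were 13.12, 13.06, 13.16, 13.17 and 13.21 in C3H and 13.31, 13.38, 13.32, 13.35 and 13.43 in NZO, in the order of the replicates. All NZO arrays were above all C3H arrays, and NZO replicates 4 and 5 lay within or next to the range of the others. The spread was small, with means of 13.14 ± 0.05 and 13.36 ± 0.05 (SD, n = 5 each). The difference of 0.22 (SE 0.07, NZO at 116% of C3H, 95% interval 105% to 128%) did not pass in the fit over all genes (limma adjusted p = 0.0523). It passed when limma let the spread depend on brightness and used a robust estimate (SE 0.05, adjusted p = 0.00674, where its alternatives ranged from that to 0.999).

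Pam encodes the enzyme that amidates peptide ends. It ranged from 13.03 to 13.19 in C3H and from 12.90 to 13.18 in NZO, with medians of 13.14 and 13.08. The ranges overlapped over most of their width, and the difference was -0.06 (SE 0.07, limma adjusted p = 0.717), with a 95% interval of 85.7% to 107% of the C3H level. Of 12 other enzymes that trim or modify peptides, 2 were higher in NZO and 0 lower, together 16.7% against 10.1% of all genes. Their median difference was 0.14. Qpctl, the Golgi enzyme that closes amino-terminal glutamine into pyroglutamate, rose from 9.14 ± 0.13 in C3H to 9.87 ± 0.13 in NZO, a 1.65-fold difference (0.73, SE 0.09, limma adjusted p = 9.86e-05). Cpd, a carboxypeptidase of the trans-Golgi network with the same kind of activity as Cpe, was 1.31-fold higher (0.39, SE 0.08, limma adjusted p = 0.00363).

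Scg5 encodes 7B2, the chaperone that the convertase PC2 needs to mature and whose end inhibits it. It was 12.46, 12.33, 12.60, 12.43 and 12.43 on C3H replicates 1 to 5, and 12.66, 12.60, 12.76, 12.64 and 12.73 on NZO replicates 1 to 5. The strains met at 12.60, where C3H replicate 3 and NZO replicate 2 had nearly the same value, and 4 of 5 C3H arrays lay below all NZO arrays. The difference was 0.23 (SE 0.07, NZO at 117% of C3H, 95% interval 105% to 130%) and did not pass (limma adjusted p = 0.0674).

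Pcsk1n encodes proSAAS, a granule protein that inhibits the convertase made from Pcsk1. It was 10.47, 10.40, 10.47, 10.56 and 10.43 in C3H and 10.69, 10.91, 10.18, 10.25 and 10.80 in NZO. In NZO replicates 1, 2 and 5 lay above every C3H array and replicates 3 and 4 below every C3H array. The SD was 0.33 in NZO and 0.06 in C3H (n = 5 each), and 4.79% of all genes had a larger SD in NZO. The mean difference of 0.10 (SE 0.13, limma adjusted p = 0.758) therefore has the widest interval of the 8 genes on the log2 scale, 88.5% to 130% of the C3H level. A score of acinar cell transcripts, described later, was 10.18, 9.92, 10.55, 12.05 and 11.92 on NZO replicates 1 to 5, and with it as a covariate the difference was 0.32 (SE 0.27). Its part in the spread within NZO was not tested. Leaving out NZO replicate 2 gave 0.014 for Pcsk1n and leaving out NZO replicate 3 gave 0.20.

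Ptprn and Ptprn2 encode IA-2 and phogrin, receptor-type phosphatase relatives without the usual enzyme activity that span the granule membrane and are autoantigens in autoimmune diabetes. Ptprn ranged from 12.77 to 12.92 in C3H (median 12.83) and from 12.62 to 12.91 in NZO (median 12.69), and the ranges overlapped. It differed by -0.08 (SE 0.08), which did not pass (limma adjusted p = 0.659, 95% interval 84.5% to 106% of the C3H level). Ptprn2 was 11.87, 11.86, 12.02, 11.70 and 11.85 in C3H and 11.77, 11.82, 11.69, 11.40 and 11.57 in NZO. Every NZO array lay below 4 of the 5 C3H arrays, and NZO replicates 4 and 5 were the lowest of all. The difference of -0.21 (SE 0.09, NZO at 86.5% of C3H, 95% interval 75.5% to 99.2%) did not pass (limma adjusted p = 0.199).

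Related genes were also set against each other within an array, which shows whether a strain difference is unequal between them. Of 5 such pairs planned, 3 could be computed without Pcsk2. The log2 value of Pcsk1 minus that of its inhibitor gene Pcsk1n was 1.95 to 2.39 in C3H and 1.49 to 2.29 in NZO, lower by a mean of 0.37 in NZO (difference -0.37, exact permutation p = 0.0794, two-sided, adjusted over the 3 pairs 0.119). Ptprn minus Ptprn2 was 0.90 to 1.13 in C3H and 0.97 to 1.22 in NZO (difference 0.13, exact permutation p = 0.0794, adjusted 0.119). Pcsk1n minus Scg5 was -2.13 to -1.87 in C3H and -2.58 to -1.69 in NZO (difference -0.13, exact permutation p = 0.476). None of the 3 passed with all arrays, where 5 arrays against 5 allow an exact p of 0.00794 at the least. Without NZO replicate 3, Pcsk1 minus Pcsk1n passed (-0.49, exact permutation test, adjusted p = 0.0476, where its alternatives ranged from that to 0.482), and Pcsk1n minus Scg5 was -0.010. Without NZO replicate 2, Pcsk1n minus Scg5 was -0.23.

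**Figure D2:**
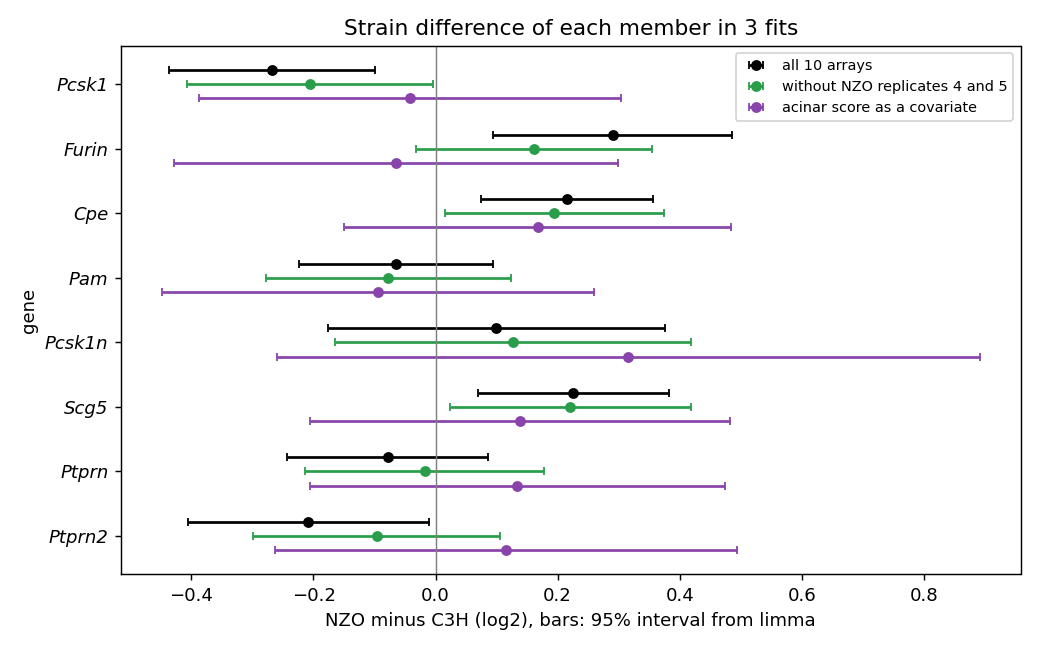
NZO minus C3H on the log2 scale (horizontal axis) with 95% intervals from limma for each measured gene, from all 10 arrays, without NZO replicates 4 and 5, and with the acinar score as a covariate. The estimates for Cpe (0.22, 0.19 and 0.17) moved less between the fits than those for Pcsk1 (-0.27, -0.21 and -0.041) and Furin (0.29, 0.16 and -0.065).

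Markers of several pancreatic cell types also differed between the strains. The acinar score, the mean log2 value of 23 genes of the enzyme-secreting acinar cells, lay between 8.05 and 8.96 in C3H. In NZO it lay between 9.92 and 10.55 on replicates 1 to 3 and reached 12.05 on replicate 4 and 11.92 on replicate 5. All 23 genes were higher in NZO in limma. The mean of 10 beta cell markers was 11.41 to 11.58 in C3H and 10.68 to 11.55 in NZO, with 3 of the 10 lower. That of 5 alpha cell markers was 10.24 to 10.27 and 9.90 to 10.09, with 2 lower. Among markers of other cells, 3 of 8 duct, 5 of 11 macrophage, 1 of 9 stellate and fibroblast and 1 of 8 endothelial genes were higher in NZO in limma, and 0 lower. Over all genes 5.47% were higher and 4.61% lower in this fit, and 13.9% of those above the median of brightness passed. The stellate and fibroblast count and the endothelial count are near this background. In islets measured in bulk, fewer cells of a type and less RNA per cell cannot be told apart. Ins2 was 12.33 ± 0.07 in C3H and 12.45 ± 0.15 in NZO, and Gcg 13.25 ± 0.06 and 13.21 ± 0.12 (SD, n = 5 each). Both were bright on all arrays and did not pass. The beta cell markers that were lower in NZO were Slc2a2 (-1.54), Ucn3 (-1.12) and Slc30a8 (-1.10). Among the alpha cell markers, Slc7a2 (-0.57) and Irx1 (-0.36) were lower. The other 7 beta and 3 alpha cell markers did not pass, and 0 of either list were higher.

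Pcsk1 and Ptprn2 had their lowest values and Furin its highest on NZO replicates 4 and 5. Without these arrays Pcsk1 was -0.21 (SE 0.09, limma adjusted p = 0.323, where its alternatives ranged from 0.0123 to 0.999). Furin was 0.16 (SE 0.09) against 0.29 with all arrays and Ptprn2 -0.096 (SE 0.09) against -0.21, each a shift of more than 1 SE. Pcsk1 and the other 5 moved by less than 1 SE, with Cpe at 0.19 (SE 0.08), Scg5 at 0.22 (SE 0.09), Ptprn at -0.018 (SE 0.09), Pam at -0.077 (SE 0.09) and Pcsk1n at 0.13 (SE 0.14). In that fit 0 of the 8 passed at an adjusted p below 0.05, against 5.54% of all genes, and 3 had an unadjusted limma p below 0.05. When the acinar score joined strain in the model, Pcsk1 was -0.041 (SE 0.16), Furin -0.065 (SE 0.17), Cpe 0.17 (SE 0.15) and Scg5 0.14 (SE 0.16), and 0 of the 8 passed, with 0 at an unadjusted limma p below 0.05. Over all genes, 1.04% passed in that fit, so a count of 0 in 8 is near its background. The share of all genes with an unadjusted p below 0.05 was not counted for either fit. Furin, Ptprn (0.13) and Ptprn2 (0.12) turned sign there. Since the score itself differs between the strains, adding it multiplies the SE of a strain difference by 2.12 before any change in spread.

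**Figure D3:**
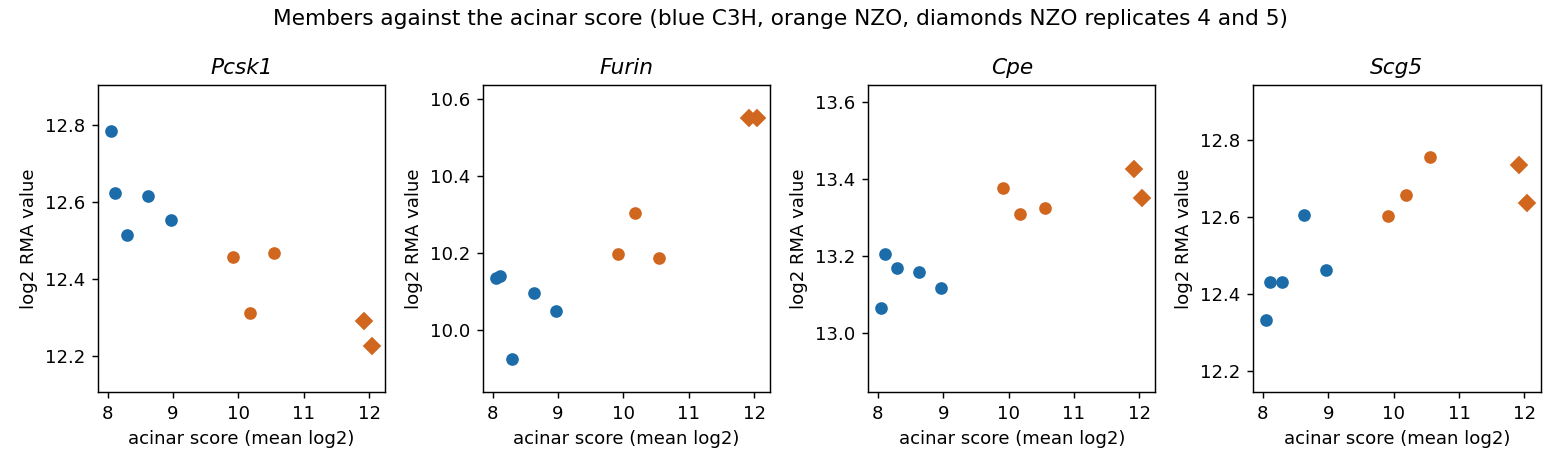
Log2 RMA value (vertical axes) of Pcsk1, Furin, Cpe and Scg5 against the acinar score of the same array (horizontal axes), C3H in blue, NZO in orange and NZO replicates 4 and 5 as diamonds. Furin is at 10.55 on both diamonds against 10.19 to 10.30 on the other NZO arrays, whereas Cpe spans only 13.31 to 13.43 over all NZO arrays.

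Larger differences stood among the cargo and the other genes of the granule. Over 8 lists of the pathway, 7 of 110 measured genes were higher and 15 lower in NZO, together 20.0% against 10.1% of all genes. Of the 110, 93 are above the median of brightness, and 20 of these 93 passed (21.5%), against 13.9% of all genes above the median in the same fit. The counts of each list below stand beside the same 10.1% of all genes, and no test of the lists as groups was made.

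Of 23 precursors and granins, the cargo of the granule, 5 were lower and 0 higher in NZO, with a median difference of -0.06. The tachykinin precursor Tac1 fell from 8.70 ± 0.61 to 6.68 ± 0.43 (-2.03, SE 0.26, limma adjusted p = 0.000149), and Vip, an intestinal and neuronal peptide, from 8.25 ± 0.62 to 6.78 ± 0.39 (-1.46, SE 0.25, limma adjusted p = 0.00165). Both NZO means lay below the medians of the arrays (6.93 to 7.05), so their folds are uncertain. Somatostatin (Sst, -0.75, SE 0.11) and pancreatic polypeptide (Ppy, -0.41, SE 0.08) were also lower, and so was Npy (-0.59, SE 0.13), named after its value was seen. Sst and Ppy mark delta and PP cells, of whose 7 markers 6 were lower (mean log2 value 9.53 to 9.83 in C3H and 8.93 to 9.16 in NZO); the part of cell numbers in this was not tested. The main measured beta and alpha cell precursors and the larger granins did not pass: Ins2 differed by 0.12 (SE 0.08), Iapp by -0.03 (SE 0.07), Gcg by -0.04 (SE 0.08), Chga by -0.10 (SE 0.09), Chgb by 0.05 (SE 0.08) and Vgf by 0.26 (SE 0.10). Ins1, also on the list, had no probe set that carries its symbol alone and was not measured. Iapp, Sst and Ppy, at 13.90, 13.87 and 13.78 in C3H, lay near the highest value of any array.

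Of 18 genes of granule acidification and other granule membrane proteins, 2 were higher and 3 lower, and the median difference was -0.10. Slc30a8, the zinc transporter of the insulin granule, was 2.14-fold lower (-1.10, SE 0.16, limma adjusted p = 0.000416), and the calcium sensor of exocytosis Syt9 was 1.46-fold lower (-0.55, SE 0.08). Vamp8, a fusion protein of acinar and other granules, was 1.51-fold higher (0.59, SE 0.09), and Cyb561, which brings electrons into the granule for the amidating enzyme, 1.27-fold higher (0.35, SE 0.09, limma adjusted p = 0.017). Sv2b, named after its value was seen, was lower (-0.43, SE 0.11). Slc30a8 was -0.18 (SE 0.19) with the acinar score as a covariate, while Syt9 was -0.49 and Vamp8 0.56 there, none of them past the threshold in a fit that called 1.04% of all genes.

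Among 17 genes of granule formation and cargo sorting, Ica1l was higher, Sort1, Ica1 and Prkd1 were lower, and the median difference was -0.06. Ica1 and its relative Ica1l encode membrane-curving proteins of the forming granule and moved in opposite directions, Ica1 from 10.59 ± 0.11 to 10.28 ± 0.12 (-0.31, SE 0.08, limma adjusted p = 0.0242) and Ica1l from 8.00 ± 0.08 to 8.47 ± 0.19 (0.47, SE 0.09, limma adjusted p = 0.00435). With the acinar covariate Ica1l still passed (0.88, limma adjusted p = 0.0172, the highest of its alternatives), whereas Ica1 did not (-0.068). The sorting receptor Sort1 differed by -0.41 (SE 0.09), with -0.12 under the covariate, and the Golgi kinase Prkd1 by -0.42 (SE 0.12). The calls of Ica1 and Prkd1 in limma ended when C3H replicate 1, 2, 3 or 5 or NZO replicate 4 or 5 was left out, and that of Prkd1 also without NZO replicate 3 (adjusted p up to 0.115). Without both NZO replicates 4 and 5, Ica1 (-0.23), Prkd1 (-0.27) and Sort1 (-0.31, limma adjusted p = 0.0672) did not pass. Of 9 genes that route furin between the Golgi and endosomes, 1 was lower, the adaptor subunit Ap1m1 (-0.30, SE 0.07, limma adjusted p = 0.0145), with a median of -0.03. Ap1m1 (-0.28, limma adjusted p = 0.117) and Cyb561 (0.34, limma adjusted p = 0.0957) also lost their calls without NZO replicates 4 and 5. None of 9 genes of signal peptide removal passed in limma, 2 of them with an unadjusted p below 0.05 (median -0.05), and their strains overlapped in all 9.

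Resp18, whose product resembles the granule-lumen part of IA-2, differed by -0.25 (SE 0.11, limma adjusted p = 0.181). Among the 17 measured genes of a list of Resp18 and other receptor-type tyrosine phosphatases, 2 were higher, Ptprg (0.61, SE 0.11) and Ptprj (0.47, SE 0.08), and 3 lower, Ptprz1 (-1.03, SE 0.21), Ptpro (-0.44, SE 0.08) and, named after its value was seen, Ptprm (-0.32, SE 0.08). The second probe set of Ptprj gave 0.43. Ptprz1 is also one of the delta and PP cell markers, and the NZO means of Ptprz1 (6.40) and Ptpro (6.35) lay below the medians of the arrays.

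**Figure D4:**
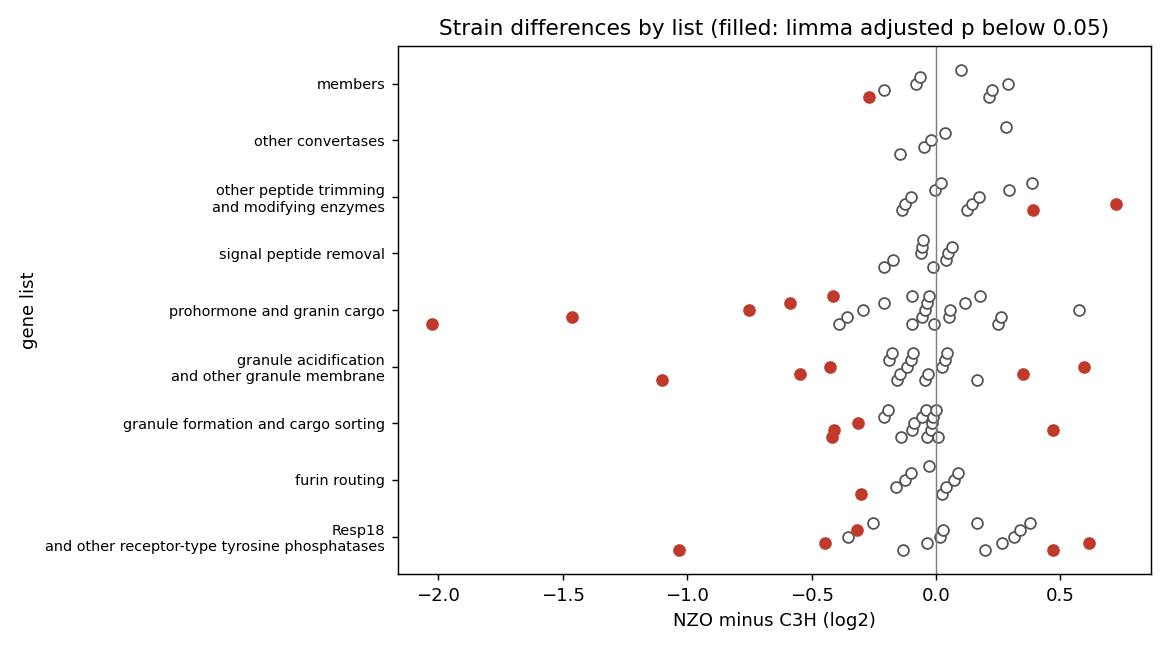
NZO minus C3H on the log2 scale (horizontal axis) for each measured gene of the 8 processing and granule membrane genes, here called members, and of the 8 pathway lists, filled where limma's adjusted p was below 0.05. The 8 members lie between -0.27 and 0.29, while cargo genes reach -2.03.

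The profiles of the genes were compared by the root mean square distance between their values over the 10 arrays, each minus its own mean. Among the 28 pairs of the 8 genes, Cpe and Scg5 were closest, at 0.0737 log2 units, followed by Ptprn and Ptprn2 (0.11) and by Pcsk1 and Ptprn2 (0.112). Pcsk1 and Furin were farthest apart, at 0.334. Over all named genes the profile nearest to that of Pcsk1 was L1cam, at a distance of 0.0574 (difference -0.22, SE 0.08), then Ccdc151 at 0.0639 (-0.25, SE 0.07) and Sdr42e1 at 0.0716 (-0.25, SE 0.08). Of these nearest profiles, only that of Ccdc151 passed in limma (adjusted p = 0.0356). Its means of 6.91 in C3H and 6.66 in NZO lay below the medians of the arrays. The distance takes in the strain difference itself and any variation the arrays share.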

How the data were processed

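RNA of 10 islet samples (150 ng each, integrity number above 8) was amplified, labelled with biotin and put on arrays, per the labels' protocols. The authors deposited log2 values, made with RMA in Affymetrix Expression Console per their processing notes. Its version, its probe set library and the build: not given in the sources used here. Such values carry no detection call, and the number of arrays limits the precision.

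Of 35556 probe sets, 21789 carried 1 gene symbol in the platform annotation and 1621 several, while 12146 are not named here. The brightest probe set was kept for each of 19938 genes. The model was fitted in limma 3.58.1 under R 4.3.3 (lmFit, then eBayes), with two-sided p-values adjusted by Benjamini-Hochberg over all genes and called below 0.05. It was tested on simulated data, but how often it finds differences as small as those of the 8 genes is not reported here. Replicate numbers follow deposition order, and the labels give no batch. The genes, lists and alternatives were chosen with earlier results of these data known. All 8 measured genes are described, with up to 4 called genes of each pathway list by smallest p and the 3 nearest profiles of the called gene. Alternatives were 2 brightness filters, another variance model, centring, averaged probe sets, left-out arrays and an acinar covariate.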

Additional observations from a re-analysis of the deposited data

Results flagged for a closer look

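In 54 sets of 5 arrays of a strain (each measured gene, each pair and each list mean), 4 held an array set apart from the rest by a gap that is large for the range (Dixon's criterion), where chance alone marks about 1 in 20 sets. None of them concerned one of the 8 genes or a pair of them. The mean of the other convertases was 8.02 on NZO replicate 4, against 8.18 to 8.24 on the other NZO arrays. The mean of the beta cell markers was 11.41 on C3H replicate 2, against 11.54 to 11.58 on the other C3H arrays, and Pcsk1 was highest on that array. The alpha cell marker mean was 10.27 on C3H replicate 5, against 10.24 to 10.25. The endothelial marker mean was 9.37 on NZO replicate 2, against 9.72 to 9.81.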

How the results depend on the processing

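Of the 8 genes, 5 kept their sign under all 17 alternatives. The exceptions were Furin (-0.065), Ptprn (0.13) and Ptprn2 (0.12) under the acinar covariate, with which Pcsk1 was -0.041, 0 of the genes were called lower, and 2 pathway genes were called higher and 1 lower, where 1.04% of all genes were called. Prkd1 (0.021) also turned sign there. Of 19 named pathway genes, 14 kept their call without NZO replicates 4 and 5, the others being Sort1, Ica1, Prkd1, Ap1m1 and Cyb561, and 2, Tac1 and Ica1l, with the covariate. Furin (0.29), Cpe (0.22) and Scg5 (0.23) passed in limma, 3 genes called higher, under both brightness filters, where 17.2% and 13.9% of the genes left were called, and with trend and robust, where 10.5% of all genes were. Pcsk1 kept its call in 8 of 17 alternatives and lost it without NZO replicates 4 and 5 (-0.21, 0 called lower). Leaving out each array in turn gave -0.30 to -0.23 for Pcsk1, 0.24 to 0.33 for Furin, 0.20 to 0.23 for Cpe and 0.20 to 0.26 for Scg5, and 0.014 to 0.20 for Pcsk1n, -0.093 to -0.023 for Pam, -0.12 to -0.046 for Ptprn and -0.25 to -0.15 for Ptprn2. It gave 0 to 1 genes called higher, 0 to 1 called lower, 7 to 13 pathway genes called higher (13 without NZO replicate 2), -0.23 to -0.010 for Pcsk1n minus Scg5, and -0.49 to -0.29 for Pcsk1 minus Pcsk1n, which passed without NZO replicate 3. The cause of these shifts was not tested. No paired analysis was made, because C3H and NZO arrays come from different animals and the labels pair none of them.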
